A study of Saccharomyces cerevisiae with 2 samples.

Results

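A group of 10 transcription regulators of budding yeast was followed here, those that tie gene expression to haem, oxygen and the state of the mitochondria: HAP1, HAP2, HAP3, HAP4, HAP5, ROX1, RTG1, RTG2, RTG3 and MGA2. They were chosen by gene symbol, and all 10 were found among the 5734 genes of the deposited table. The study sequenced messenger RNA of Saccharomyces cerevisiae from the wild-type strain 2-10515 and from the mutant strain Y518, which the series title calls a high producer of glutathione. Both strains were grown in the same way, as a seed culture for 18 h at 30 °C and 180 rpm and then as a flask fermentation of 24 h. The labels name no mutated gene, no ploidy and no relation between the strains beyond wild type and mutant. There was 1 library per strain, so no difference below has a replicate check, and each compares these libraries and not the strains in general.

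Haem is made in a pathway that needs oxygen, and yeast reads its level as a sign of oxygen. Hap1 is a zinc-cluster protein that binds haem and then activates genes of respiration, sterol synthesis and the oxidative stress defence. Among its targets is ROX1, which encodes a repressor that keeps hypoxic genes off in air, together with the Tup1-Cyc8 corepressor. Hap2, Hap3 and Hap5 form a complex on CCAAT boxes, and Hap4, which does not touch DNA by itself, gives that complex its activation domain and is made mainly when cells respire. Rtg1 and Rtg3 are a pair of helix-loop-helix proteins that carry the retrograde signal from impaired mitochondria to the nucleus, and Rtg2 is the cytoplasmic sensor that releases them. Mga2, and its paralogue Spt23, are anchored in the endoplasmic reticulum, are cut loose by the proteasome when membranes are short of unsaturated fatty acids, and then activate the fatty acid desaturase gene OLE1.

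Uniquely mapped reads numbered 4.71 M in the library of 2-10515 and 4.32 M in that of Y518. Levels are given as RPKM, the reads per kilobase of coding sequence and scaled to the reads of the library. Differences are log2 ratios, Y518 to wild type, after 1 was added to each RPKM, and a gene is called when the ratio reaches 2-fold. For a single gene the fold compares its share of the reads in each library, with a 95% interval that covers counting error only. A mean of 5 RPKM or more was required, which 5415 genes reached, and of these 19.9% were called higher in Y518 and 8.88% lower. The median log2 ratio of these genes was 0.27, so differences are also given relative to it. After centring on that median 13.2% were higher and 13.6% lower, while TMM scaling (a trimmed mean of ratios) gave 13.5% and 13.2%. Higher genes made up 69.1% of all calls as the authors scaled the values, 49.2% after centring and 50.4% with TMM. All 10 regulators passed the minimum level.

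The regulators spanned a wide range of transcript levels. Among the wild-type values HAP4 stood highest at 657 RPKM, above 95.8% of the genes tested, and MGA2 lowest at 15.6 RPKM, above 19.6% of them. ROX1 was second at 442 RPKM, and the other 7 lay between 37.8 RPKM (RTG1) and 171 RPKM (HAP2). HAP5 and HAP1, at 50.7 and 50.6 RPKM, were the only neighbours in the wild-type order whose levels could not be separated by counting error. In Y518 HAP4 and ROX1 stood level at the top, with 377 and 371 RPKM and a ratio of levels of 1.02 (0.96 to 1.08). MGA2, last in the wild type, came next after these with 126 RPKM, and HAP1 followed with 109 RPKM. At the low end of the Y518 order HAP5, HAP3 and RTG1 had 41.6, 34.6 and 33.4 RPKM, and neither neighbouring pair among them was separated by counting error. The same held in Y518 for HAP2 and RTG2, at 88.0 and 85.3 RPKM.

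**Figure D1:**
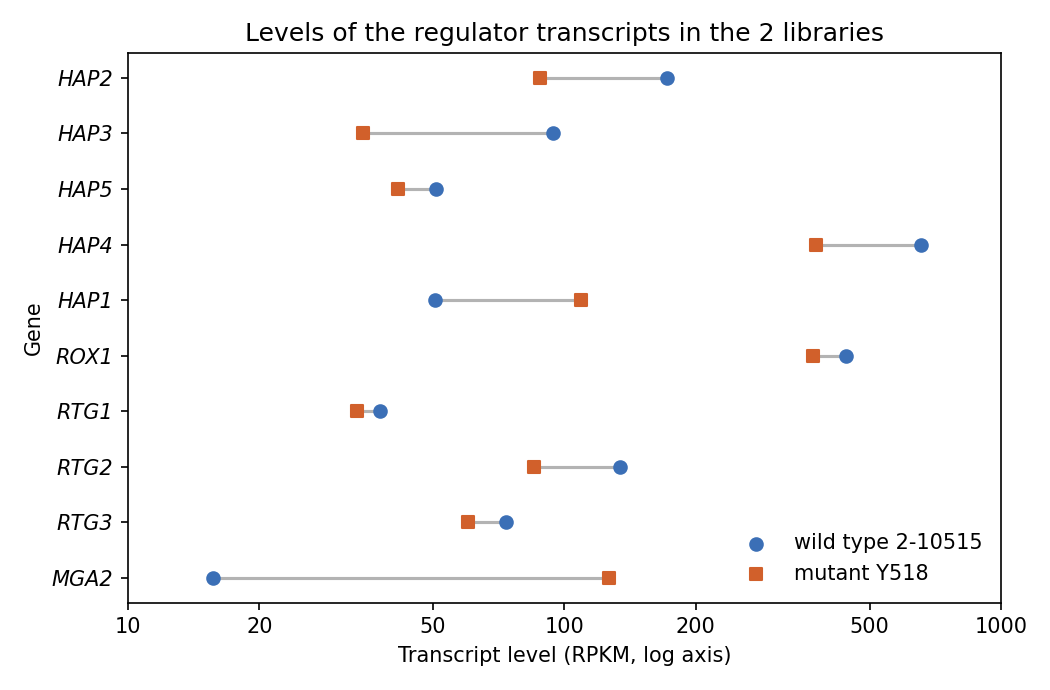
Transcript level of each regulator in RPKM on a log axis, with a circle for the wild-type library and a square for the Y518 library, 1 library each. MGA2 and HAP1 lie to the right in Y518, MGA2 going from 15.6 to 126 RPKM, while the squares of the other 8 genes lie to the left of their circles.

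Of the 10 regulators 2 were called higher in Y518 (MGA2 and HAP1), 1 was called lower (HAP3) and 7 were within 2-fold. The share of all genes called was 19.9% and 8.88% in these directions, so the counts alone do not set the regulators apart. Their median log2 ratio was -0.28, against 0.27 for all genes tested. Of the 10 regulators 8 lay below 0, beside 2005 of all 5415 genes tested, and 8 did so after centring, beside 2707. After centring, 1 regulator was higher (MGA2) and 3 were lower (HAP2, HAP3 and HAP4), beside 13.2% and 13.6% of all genes. TMM scaling gave the same counts. Taking each ratio relative to the median of its own chromosome also left 1 higher and 3 lower, where all genes gave 12.4% and 13.0%. At 3-fold MGA2 alone was called, beside 8.33% of all genes higher and 3.86% lower. At 1.5-fold 2 were higher and 4 lower, beside 35.3% and 16.4%. No regulator changed its sign after centring, with TMM or relative to its chromosome. These scalings lowered the ratio of every regulator, so only MGA2 and HAP1 could have changed sign. The thresholds leave the ratios as they are.

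**Figure D2:**
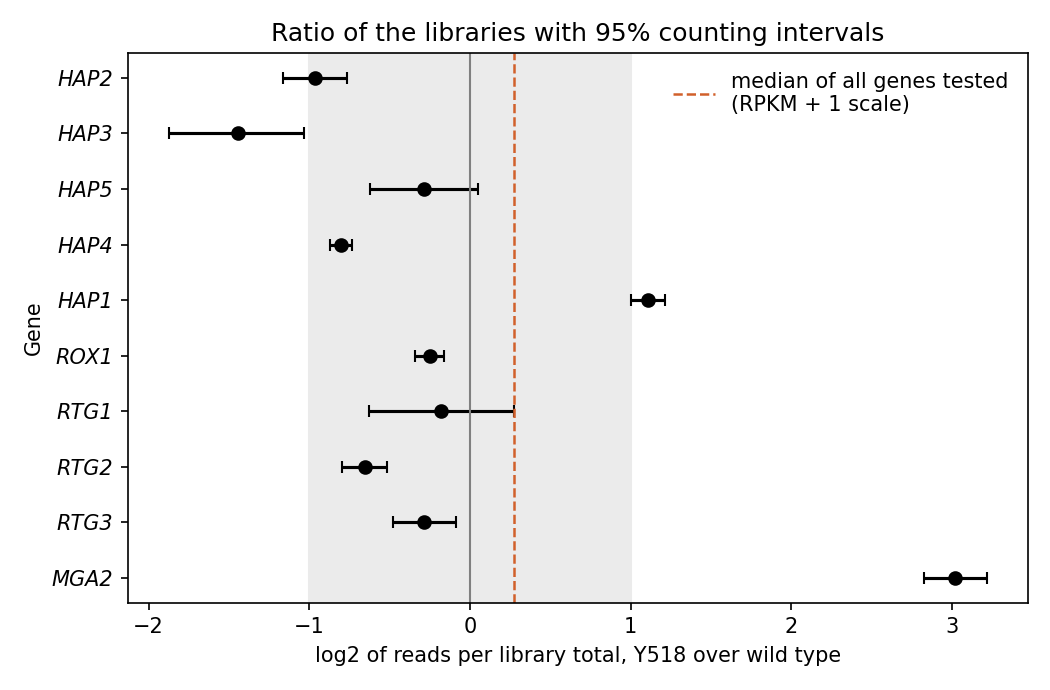
Log2 ratio of reads per library total in Y518 over the wild type for each regulator, with 95% counting intervals as bars, the range within 2-fold shaded and the median of all genes tested (0.27) dashed. MGA2 and HAP1 lie to the right of the shaded range, HAP1 just beyond its edge, and HAP3 lies to its left, and the intervals of HAP5 and RTG1 include 0.

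HAP1 (YLR256W, chromosome XII), the haem-activated regulator, had 1074 wild-type reads and 2123 Y518 reads. That was a 2.16-fold higher level in Y518 (2.00 to 2.32), and 17.4% of the genes tested had a ratio at least as high. Its log2 ratio of 1.09 was 0.82 relative to all genes and 0.83 with TMM, so the call was lost under either scaling while the sign held. The reference strain S288C is known to carry a Ty1 transposon near the 3′ end of HAP1, which changes the end of its reading frame. In the reference, the last 108 bases of the listed coding sequence, from base 4402 to base 4509, had matches of at least 95% identity at 84 other places. Reads from such a stretch can fail to map uniquely. The deposited coverage left 142 of its 4509 bases without a read in 2-10515 and 50 in Y518, and the table does not say where those bases lie.

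ROX1 (YPR065W, chromosome XVI), the hypoxic repressor, had 2302 and 1773 reads. It was 1.19-fold lower in Y518 (1.12 to 1.27), within 2-fold under every scaling, with a log2 ratio of -0.25, or -0.52 relative to all genes. Relative to ROX1, HAP1 was 2.57-fold higher in Y518 (2.33 to 2.83). This ratio of ratios is free of the library scaling. HAP1 and ROX1 thus stood further apart in the wild type, where HAP1 was at 0.11 of the ROX1 level, than in Y518, where it was at 0.29.

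The 4 genes of the CCAAT-binding complex were all lower in Y518, by unequal amounts. HAP4 (YKL109W, chromosome XI), which encodes the activating subunit, had 5153 wild-type reads and 2708 Y518 reads, 1.74-fold lower (1.67 to 1.83). HAP2 (YGL237C, chromosome VII), which encodes a DNA-binding subunit, had 644 and 303 reads, 1.95-fold lower (1.70 to 2.24). In the reference, a stretch of HAP2 from base 357 to base 399 had matches of at least 95% identity at 3 other places. HAP3 (YBL021C, chromosome II), which encodes a histone-fold subunit, had 193 and 65 reads, 2.72-fold lower (2.05 to 3.66). Only HAP3 was past 2-fold as the authors scaled the values. Relative to all genes the log2 ratios were -1.69 for HAP3, -1.23 for HAP2 and -1.07 for HAP4, all past 2-fold. HAP5 (YOR358W, chromosome XV), which encodes the histone-fold partner of Hap3, had 174 and 131 reads, 1.22-fold lower with an interval of 0.97 to 1.54 that includes 1.

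The proportions of these 4 transcripts to each other differed between the libraries. HAP3 was 2.23-fold lower in Y518 relative to HAP5 (1.54 to 3.27), HAP2 was 1.60-fold lower relative to HAP5 (1.22 to 2.10), and HAP4 1.43-fold lower relative to HAP5 (1.13 to 1.82). In the wild type HAP3 stood at 1.86 times the level of HAP5 per coding length, and in Y518 at 0.83 times (0.61 to 1.13). HAP4 kept its place as the most abundant of the 4, at 3.83 times the level of HAP2 in the wild type and 4.28 times in Y518. The ratio of ratios of HAP4 to HAP2, 1.12, had an interval of 0.97 to 1.29, so these transcripts could not be told apart in how far they differed. None of the 4 genes overlaps another annotated gene. The genes on either side of HAP4 lay in opposite directions, KTI12 with 510 wild-type and 124 Y518 reads and SLD2 with 37 and 110. Strand assignment of reads is not described in the labels or headers, and the part of neighbouring transcripts in these values was not tested.

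The 3 retrograde genes were within 2-fold under every scaling. RTG2 (YGL252C, chromosome VII), the sensor, had 1118 wild-type reads and 651 Y518 reads, 1.57-fold lower (1.43 to 1.74), with a log2 ratio of -0.92 relative to all genes. RTG3 (YBL103C, chromosome II), the subunit with the activation domain, had 505 and 380 reads, 1.22-fold lower (1.06 to 1.40). RTG1 (YOL067C, chromosome XV), its partner, had 95 and 77 reads, and its ratio of 1.13-fold lower had an interval of 0.83 to 1.55. Of the 3, RTG2 was the one furthest below the wild type, 1.29-fold lower relative to RTG3 (1.09 to 1.53). RTG3 stood at 1.94 times the level of RTG1 in the wild type and at 1.80 times in Y518, and their ratio of ratios of 0.93 (0.66 to 1.31) shows no separation at this depth. Of the genes on either side of RTG2, HXK2 had 240 and 1664 reads, in the opposite direction to RTG2, and HFM1 had 205 and 110 reads, in the same direction.

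MGA2 (YIR033W, chromosome IX), the membrane-bound activator, showed the widest difference of the 10. It had 246 wild-type reads and 1825 Y518 reads, 8.09-fold higher (7.08 to 9.28), and 1.68% of the genes tested had a ratio at least as high. Reads covered 86.8% of its coding length in 2-10515 and 99.6% in Y518. Its paralogue SPT23 differed in the other direction, with 1574 and 891 reads, 1.62-fold lower in Y518 (1.49 to 1.76) and within 2-fold. MGA2 made up 13.2% of the summed RPKM of both paralogues in 2-10515 but 66.6% in Y518, and the ratio of ratios was 13.1 (11.2 to 15.4). The sum itself was 119 RPKM in 2-10515 and 190 RPKM in Y518. A search for near-identical copies found none for MGA2, and none elsewhere in the genome down to a match of 30 bases.

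Chromosome IX, which carries MGA2, stood above the others in Y518. Its 196 tested genes had a median log2 ratio of 1.01, and 51.0% of them were called higher, while the medians of the other 15 nuclear chromosomes lay between -0.11 and 0.41. MGA2 had a log2 ratio of 2.94, or 1.93 relative to its own chromosome, which is still past 2-fold. The neighbours of MGA2 differed less, DAL3 with 90 and 186 reads and LYS1 with 891 and 935. The other 9 regulators lie on chromosomes whose medians ran from 0.05 to 0.37. More copies of a gene and more transcript per copy cannot be told apart in these data.

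**Figure D3:**
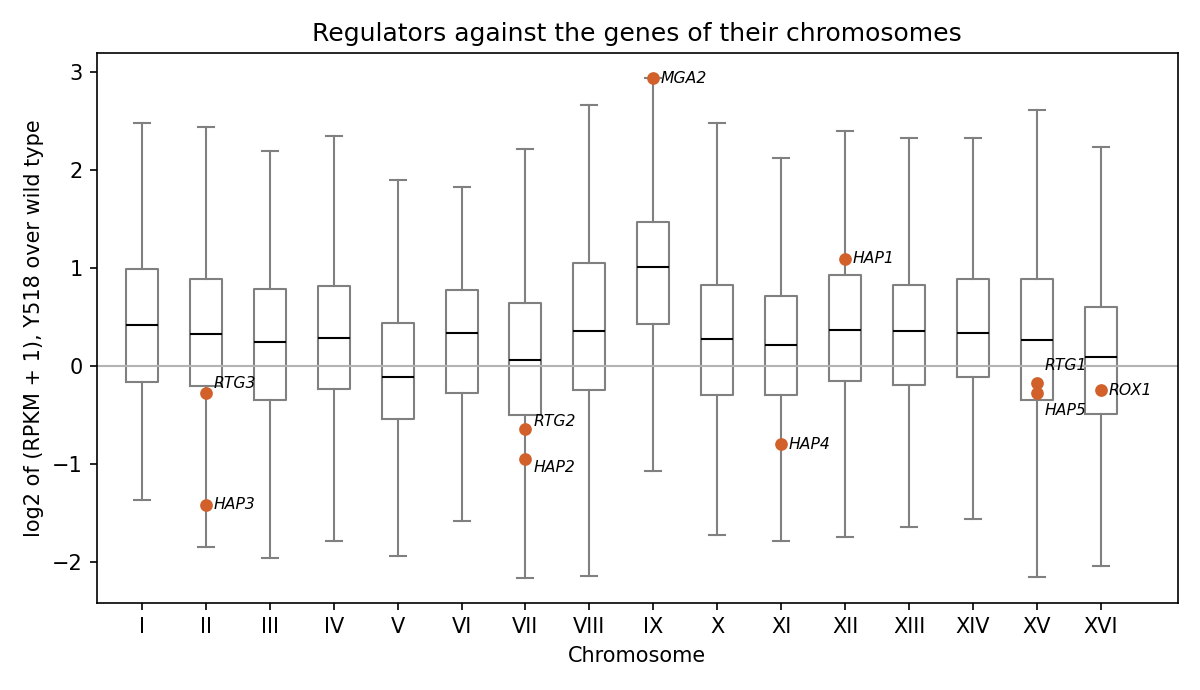
Log2 ratio of RPKM + 1, Y518 to wild type, for the tested genes of each nuclear chromosome, as boxes (quartiles) with the median as a line and whiskers to the furthest gene within 1.5 box lengths, and the 10 regulators as named points. The box of chromosome IX has a median of 1.01, and MGA2 lies at 2.94, near the end of its upper whisker.

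The regulators act through short DNA elements upstream of their targets, and a few of these are shown so that their form can be seen for genes named below. They were chosen after the values were seen. Counts of motifs are given below beside all genes, but no motif was tested, and no ratio or call uses one. They were read from the 500 bases before the start codon in the RefSeq R64 reference of strain S288C, located through transcript records that match the deposited identifiers. The strains sequenced here may differ from it. Each is written 5′ to 3′ on the strand that carries the motif, with the motif in capitals. The first set holds CCAAT boxes, the letters bound by Hap2, Hap3 and Hap5, 317 bases before the start codon of SDH1 (chromosome XI) and 286 before that of COX6 (chromosome VIII).
SDH1: cgggggtggaCCAATcacagcgcag
COX6: tccatacgagCCAATcagggccccg
The second set holds GTCAC, the R box of Rtg1 and Rtg3, at 345 bases on the strand of CIT2 and at 312 on the opposite strand (chromosome III), and at 143 bases before DLD3 (chromosome V).
CIT2 at 345: gggcgaagagGTCACgacctatttt
CIT2 at 312: tacggaaaagGTCACactttttttc
DLD3: ccaaatctaaGTCACgcgcggaaac
The third set holds ATTGTT, the core bound by Rox1, at 281 bases before ANB1 (chromosome X) and 182 before HEM13 (chromosome IV). The same letters occur 248 bases before HAP1 itself. HAP1 is not in the list of Rox1-repressed genes, and binding there was not tested.
ANB1: ttttcgccctATTGTTctcgagccta
HEM13: tgctttgcccATTGTTctcgtttcga
HAP1: cacagacgctATTGTTctcccaaaga
The last is the low-oxygen response element ACTCAACAA, through which Mga2 acts, 343 bases before OLE1 (chromosome VII).
OLE1: gacgttgaacACTCAACAAaccttatcta

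Over both strands CCAAT occurred in the windows of 20 of 23 CCAAT-complex targets, and of 62.8% of all 5683 genes searched. GTCAC occurred for 7 of 9 retrograde targets and for 42.4% of all genes, and ATTGTT for 6 of 9 Rox1-repressed genes and 49.0% of all genes. These short motifs are therefore common upstream of any gene. ACTCAACAA was rarer, at 22 of 5683 genes (0.387%), with OLE1 among them. The full Hap1 repeat, CGGNNNTANCGG, was found upstream of 20 of all genes (0.352%) and of 0 of the 10 Hap1 targets. Among the regulators themselves CCAAT was found for 7 of 10, ATTGTT for 8 and GTCAC for 4. On the opposite strand of CIT2 a CCAAT box at 200 bases before the start codon and an R box at 196 share 1 letter, as in attaacgtcaCCAATttcatacgaa, where the capitals mark the CCAAT box alone.

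Known targets of the CCAAT-binding complex were mostly lower in Y518. Of 23 genes 14 were called lower and 1 higher, beside 8.88% and 19.9% of all genes, and their log2 ratios had a median of -1.43 (-1.70 relative to all genes); after centring 18 were lower and 1 higher. SDH3 and SDH1, subunits of succinate dehydrogenase, were 5.91-fold and 4.82-fold lower, with 14074 and 2184 reads for SDH3 and 26191 and 4981 for SDH1. COX6, a subunit of cytochrome oxidase, had 3886 and 764 reads, 4.66-fold lower (4.31 to 5.05). SDH3, SDH1 and COX6 were named for the largest absolute ratios of the list, so they are not set against the 4 subunit genes. Beside the median of all 23 targets, -1.43, the subunit genes had log2 ratios of -1.42 (HAP3), -0.955 (HAP2), -0.80 (HAP4) and -0.28 (HAP5). A link between subunit and target levels was not tested. The aerobic cytochrome oxidase subunit gene COX5A was 3.53-fold lower, with 8991 and 2333 reads. CYC1, the main cytochrome c gene and the textbook target of both Hap1 and the CCAAT complex, had 1343 and 898 reads, 1.37-fold lower (1.26 to 1.49) and within 2-fold. The higher gene was CYB2, encoding L-lactate dehydrogenase, with 1868 and 5220 reads.

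Of 10 known targets of Hap1, 6 were called higher in Y518 and 0 lower, beside 19.9% and 8.88% of all genes. The other 4 had log2 ratios below 0, and the median of the 10 was 1.30 (1.02 relative to all genes). After centring 5 were higher and 2 lower, beside 13.2% and 13.6%, and with TMM 5 and 1, beside 13.5% and 13.2%. HMG1, an isozyme of HMG-CoA reductase in sterol synthesis, had 302 and 1956 reads, 7.06-fold higher in Y518 (6.25 to 8.0). The cytosolic catalase gene CTT1 had 2196 and 7747 reads, 3.85-fold higher (3.67 to 4.04), and CYB2 was 3.05-fold higher. CYC7, encoding the hypoxic form of cytochrome c, was 32.7-fold higher on 4 and 120 reads, with an interval of 12.5 to 122; at 2.48 RPKM in the wild type, it reached the minimum mean level only through Y518. The sterol genes ERG5 and ERG11 were 2.90-fold and 2.08-fold higher, and ERG11 was within 2-fold after centring. CYC1, CYT1 and CYB2 are in this list and in that of the CCAAT complex, and CYC7 and ERG11 in this list and in that of Rox1, so the lists are not independent. ROX1, named above as a target of Hap1, was counted with the regulators and not in this list, and its log2 ratio was -0.25.

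Genes that Rox1 represses in air went in both directions. With no minimum level, 5 of the 9 genes were called higher and 2 lower, beside 20.1% and 9.23% of all 5734 genes, with a median log2 ratio of 1.06. ANB1, CYC7 and DAN1, which are 3 of the 5, had under 5 RPKM in the wild type and reached the minimum mean level only through Y518, while AAC3, with 4 and 1 reads, did not reach it. The median of the 8 genes that reached it, 1.69, is therefore not read further, and it was 1.06 without chromosome IX. CYC7 and ERG11 are 2 of the 5 and were counted among the Hap1 targets too, and ERG11 was within 2-fold after centring. COX5B, the hypoxic counterpart of COX5A, had 29 and 141 reads, 5.30-fold higher (3.54 to 8.21); it lies on chromosome IX and its log2 ratio of 2.32 was 1.32 relative to that chromosome. ANB1, which encodes the eIF5A isoform made without oxygen, had 0 wild-type reads and 318 Y518 reads, at least 116-fold higher against 3 reads, but only 18.8% of its length was covered in Y518 and the value is uncertain. DAN1, an anaerobic cell wall gene, had 2 and 80 reads, a ratio of 43.6 with an interval of 11.7 to 366. HEM13, which encodes the oxygen-requiring coproporphyrinogen oxidase of haem synthesis and is a classic Rox1 target, had 1066 and 154 reads, 6.35-fold lower (5.36 to 7.56). FET4, a low-affinity iron transporter gene, was 4.92-fold lower. ROX1 itself, as given above, was within 2-fold.

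Of the corepressor and the other cofactors 1 of 8 was called lower and 0 higher, beside 8.88% and 19.9% of all genes, so the single call does not set this list apart. It was CYC8, which encodes the partner of Tup1 in repression, with 1228 and 521 reads, 2.16-fold lower in Y518 (1.95 to 2.40). TUP1 had 1168 and 1092 reads, a ratio of 1.02 (0.94 to 1.11). MOT3, encoding a second repressor of hypoxic genes, and SRO9, encoding a protein found in complex with Hap1, had ratios of 1.28 and 1.58.

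Retrograde targets lay on both sides. Of 9 genes 3 were called higher and 3 lower, beside 19.9% and 8.88% of all genes, with a median log2 ratio of -0.73. After centring 2 were higher and 5 lower, beside 13.2% and 13.6%. CIT2, encoding the peroxisomal citrate synthase that serves as the standard readout of the pathway, had 6617 and 13858 reads, 2.28-fold higher (2.22 to 2.35), and was within 2-fold after centring (0.92). DLD3, a D-lactate dehydrogenase gene, had 556 and 1416 reads, 2.78-fold higher (2.52 to 3.07), and ATO3, of the ammonium transporter family, 144 and 336 reads, 2.54-fold higher. The lower genes were ACO1, IDH2 and CIT1, all of the mitochondrial tricarboxylic acid cycle. ACO1 (aconitase) had 39245 and 12202 reads and IDH2 (isocitrate dehydrogenase) 7238 and 2250, each 2.95-fold lower. CIT1 is also in the list of the CCAAT complex. CCAAT occurred upstream of 8 of the 9 retrograde targets, ACO1, IDH2 and CIT1 among them, beside 62.8% of all genes. Which regulator the lower genes answer to was not tested. Of the signalling partners of the Rtg proteins 0 of 5 were called, beside 19.9% of all genes higher and 8.88% lower. MKS1, encoding the negative regulator that Rtg2 binds, had a ratio of 1.28 (1.10 to 1.495), and the 14-3-3 gene BMH2 and the TOR complex gene LST8 had ratios of 1.16 and 0.88.

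For Mga2 the list held its paralogue, the proteins that cut or degrade it, and OLE1. Of 8 genes 2 were called higher and 0 lower, beside 19.9% and 8.88% of all genes, with a median log2 ratio of 0.39 against 0.27, so neither sets this list apart. OLE1, encoding the only fatty acid desaturase of this yeast, had 15467 wild-type reads and 41197 Y518 reads, 2.90-fold higher (2.85 to 2.96), and remained past 2-fold after centring (1.27). SSM4, encoding the ubiquitin ligase Doa10, which acts in the turnover of Mga2, had 710 and 1624 reads, 2.49-fold higher. SSM4 also lies on chromosome IX, and relative to that chromosome its log2 ratio was 0.29; without chromosome IX, 1 gene of 7 was called, OLE1. NPL4, of the Cdc48 complex that frees the cut Mga2 from the membrane, had 237 and 379 reads, a ratio of 1.74 (1.48 to 2.06).

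**Figure D4:**
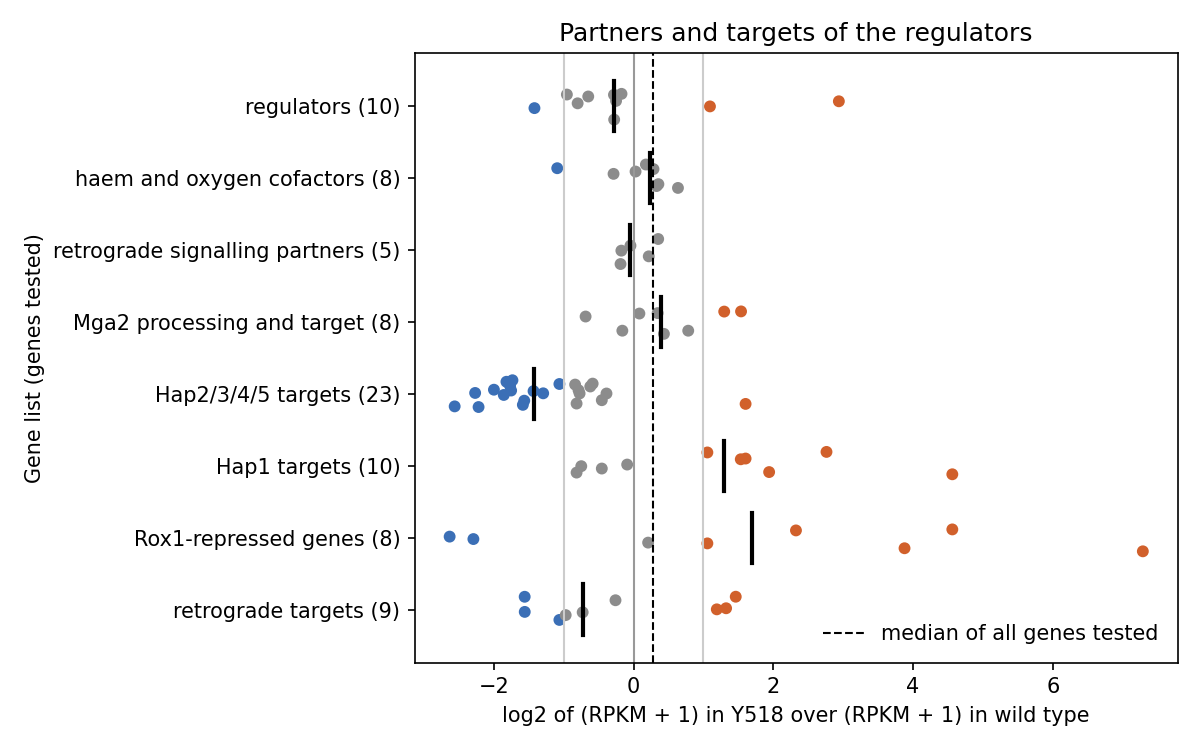
Log2 ratio of RPKM + 1, Y518 to wild type, for each gene of the regulators and of the 7 lists that reached the minimum level, 1 point a gene, coloured where the ratio is at least 2-fold, with the list median as a black bar and the median of all genes tested (0.27) dashed. Points of the CCAAT-complex targets gather to the left around a median of -1.43. Those of the Hap1 targets, the Rox1-repressed genes and the retrograde targets fall on both sides of 0. ANB1, CYC7 and DAN1 reached the minimum level only through Y518.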

How the data were processed

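The authors deposited, per the file headers, 3 values per gene and library, namely a count of reads that map uniquely, a coverage in percent of the length, and an RPKM. The counts in the series table matched the tables of the single libraries with 0 mismatches, and RPKM recomputed from counts, length and library total differed for 0 genes beyond a relative 1e-06. Lengths are coding lengths. Neither the labels nor the headers name an aligner or a build. Columns of other samples numbered 0. With 1 library per strain no test was made and no p-value is given. Ratios used RPKM with a pseudocount of 1, a minimum mean of 5 RPKM and a 2-fold rule. Intervals are exact conditional binomial (Clopper-Pearson) intervals at 95% for ratios of counts. Ratios of ratios use the conditional odds ratio (scipy 1.17.1). Intervals and the limit of 3 reads cover counting error only, and reads are not independent molecules. TMM factors came from edgeR 4.0.16 on the deposited counts. The calls and intervals were tested on simulated data. The simulated counts held counting error only, and no difference of exactly 2-fold was planted. They therefore say nothing on variation between cultures.

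Identifiers were matched to RefSeq R64, 5685 of 5734 with their version and 5713 without, for names, neighbours, upstream sequence and copies (BLAST+ 2.17.0, at least 95% identity over at least 100 bases, for 220 genes). Without a named build for the counts, coordinates are left out. Regulators, lists and motifs were chosen with earlier results of these data known, the motifs after the values were seen. Named are all 10 regulators, the 3 genes of each list with the largest absolute log2 ratio, and 11 anchor genes. CYB2, CYT1, CIT1, ERG5, ERG11, FET4, ATO3, AAC3, TUP1 and the neighbouring genes were named after their values were seen. Alternatives were other pseudocounts, filters, thresholds and scalings, and lists without near-identical copies or chromosome IX.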

Additional observations from a re-analysis of the deposited data

How the results depend on the processing

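No paired analysis was possible because each strain has 1 library, and no library could be left out. Over all genes tested, 1076 were higher and 481 lower as reported. Centring on the median gave 714 and 737, a threshold of 1.5-fold 1912 and 886, and one of 3-fold 451 and 209. The regulators called higher were 2 as reported and 1 after centring, with TMM, relative to the chromosome median and at 3-fold. Those called lower were 1 as reported, 3 after centring, with TMM and relative to the chromosome median, 4 at 1.5-fold and 0 at 3-fold. Of the single regulators' ratios, 76 kept their side of 2-fold or of the other threshold, 9 newly passed it and 5 no longer did, and 0 changed sign. Part of this was fixed beforehand. Pseudocounts, filters and thresholds cannot change the sign of a ratio. All 10 regulators passed every filter, so the filters could change no call either. HAP1 ranged from 0.73 to 1.11, HAP3 from -1.75 to -1.32 and MGA2 from 1.93 to 3.01 on the log2 scale. Hap1 targets called lower were 0 as reported, 2 after centring, 1 with TMM and 2 at 1.5-fold. Retrograde targets called higher were 3, and 0 at 3-fold, and those called lower were 3, with 5 after centring, 5 at 1.5-fold and 0 at 3-fold. A higher threshold gives fewer calls by construction, and centring shifts every ratio down by 0.27. No regulator and no gene of the lists was marked as having a near-identical copy, so leaving such genes out could not change their counts. Other pseudocounts and filters left the counts above within 1.5 times. Leaving out chromosome IX, an alternative chosen after seeing the data, did so too for the lists of targets, but took the genes called higher in the Mga2 list from 2 to 1. The median log2 ratio of the Rox1-repressed genes was 1.69 for those above the minimum level and 1.06 with no minimum, at 20 RPKM and without chromosome IX. HAP3 and RTG1, with 65 and 77 reads in Y518, have the widest intervals of the 10.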
